A study of Mus musculus with 2 samples.

Results

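A set of 10 immediate early and activity-linked genes was followed across the neurons of the mouse hippocampus. These are the transcription factors Egr1, Egr3 and Egr4, the AP-1 subunits Fos, Fosb, Fosl2 and Junb, the neuronal factor Npas4, and the synaptic effectors Arc and Nptx2. They were taken by symbol, and all 10 were found among the 32285 genes of the files. The material was nuclei of hippocampi from C57BL/6J mice, which had received an adeno-associated virus (AAV) into both cerebral ventricles on postnatal day 0. The control vector, AAV-STOP, carried a human MAPT transcript whose early stop codon keeps tau from being made, and AAV-TAU carried full-length 2N4R wild-type human tau. All mice were 6 weeks old, and the hippocampi of 3 mice were pooled in each group into 1 library. Every mouse thus received a virus and a human MAPT transcript. The vectors' promoter and serotype are not given in the sources used here, human MAPT is no entry of the gene list, and which nuclei took up a vector could not be read. The comparison asks how hippocampal neurons differed when the vector encoded translated human tau. With 1 pooled library per group there is no test of the condition, and more nuclei expressing a gene, more RNA in each, or 1 mouse of the pool cannot be told apart.

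Immediate early genes are transcribed within minutes of synaptic input, without new protein synthesis, and in the hippocampus they mark neurons that were recently active. Calcium entry and kinase cascades act on factors already bound at these genes, among them CREB, SRF and MEF2. The EGR, FOS, JUN and NPAS4 proteins then switch on later genes, while ARC and NPTX2 act at the synapse itself. Transcript levels depend on handling, novelty and anaesthesia before death, none of which the labels give.

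The sequence before 4 of the genes is shown because members can be driven by the same upstream elements. RefSeq's promoter table for GRCm38.p6 held an entry for 6 of the 10 members (Egr4, Fos, Fosb, Fosl2, Junb and Npas4), and the 250 bases before each gene start were searched on both strands. Fosb is shown from base -250 to base -7 and the other 3 from -250 to -1, counted from RefSeq's gene start and read along the gene's own strand. Capitals mark the core of the cAMP response element, TGACG or its reverse complement, and in Fosb also an EGR site, GCGNGGGCG. The windows are chr6:85513590-85513839 on the minus strand for Egr4, chr12:85473640-85473889 on the plus strand for Fos, chr7:19310052-19310295 on the minus strand for Fosb and chr8:84978749-84978998 on the minus strand for Junb.
Egr4: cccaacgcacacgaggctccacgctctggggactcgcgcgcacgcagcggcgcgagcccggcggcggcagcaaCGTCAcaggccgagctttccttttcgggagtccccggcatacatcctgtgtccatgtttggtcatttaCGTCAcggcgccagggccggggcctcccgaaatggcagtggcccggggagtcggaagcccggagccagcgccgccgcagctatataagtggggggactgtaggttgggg
Fos: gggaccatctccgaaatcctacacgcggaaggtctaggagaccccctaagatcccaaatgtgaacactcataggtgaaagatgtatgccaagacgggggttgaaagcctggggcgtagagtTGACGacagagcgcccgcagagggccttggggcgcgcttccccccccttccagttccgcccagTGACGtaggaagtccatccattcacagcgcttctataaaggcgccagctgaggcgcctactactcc
Fosb: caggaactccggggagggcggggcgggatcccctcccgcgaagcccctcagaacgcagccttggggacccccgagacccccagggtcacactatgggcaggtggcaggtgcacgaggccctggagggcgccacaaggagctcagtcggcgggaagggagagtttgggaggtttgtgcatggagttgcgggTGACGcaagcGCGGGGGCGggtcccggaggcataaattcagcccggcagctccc
Junb: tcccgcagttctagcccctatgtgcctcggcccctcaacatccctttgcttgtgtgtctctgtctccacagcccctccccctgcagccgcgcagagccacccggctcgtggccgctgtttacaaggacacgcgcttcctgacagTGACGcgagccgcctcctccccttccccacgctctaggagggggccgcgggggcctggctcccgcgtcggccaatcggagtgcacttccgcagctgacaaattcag

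The core TGACG was found in 5 of the 6 windows, those of Egr4, Fos, Fosb, Junb and Npas4, against 17.8% of the 32851 promoters in the table. Egr4 held it at -177 to -173 and at -109 to -105, both on the opposite strand. Fos held it at -129 to -125 and at -66 to -62, Fosb at -60 to -56 and Junb at -106 to -102. Npas4, whose window lies in an annotated exon and is not shown, held it at -179 to -175 and at -169 to -165. The window of Fosl2 lies wholly within an annotated exon and is not shown either. The EGR site was found in Fosb at -50 to -42 and in Fosl2 at -79 to -71, against 4.7% of promoters. The complete element TGACGTCA (1.55% of promoters; it contains the core), the AP-1 site TGANTCA (6.75%), the SRF-bound CArG box (1.47%) and the MEF2 box (2.92%) had no match in the 6 windows. A match is a string of letters and not a shown binding site.

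The AAV-STOP library held 20265 barcodes with 130252240 UMIs (unique molecules counted per gene) and the AAV-TAU library 19596 barcodes with 109428807 UMIs, at medians of 5750 and 5119 UMIs per barcode. The libraries shared 116 barcodes (0.592% of the smaller). After filters and doublet removal 35673 nuclei remained, clustered without the members, and 21476 of them fell in named neuron classes. Of these classes 8 are compared here, and mossy-like neurons (71 and 76 nuclei) are not. Classes carry the suffix -like, since markers alone name them, for example Prox1 at 333 CPM (UMIs per 1000000 UMIs of the class) in granule-like neurons against 60.7 in the other nuclei, Man1a at 538 against 109 in CA1-like and Iyd at 34.9 against 1.79 in CA3-like neurons. The compared neuron classes gave from 125 Cajal-Retzius-like to 5151 granule-like nuclei in AAV-STOP. The members are sparse in nuclei. In the 8 compared neuron classes of both libraries together, Egr1 gave 2308 UMIs, Junb 1553, Egr3 1264, Arc 998 and Fosl2 925. Egr4 gave 798, Npas4 581, Nptx2 483, Fos 382 and Fosb 236. Intervals given below are exact 95% intervals that cover counting error only, not the spread between mice.

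Positions of the members in the mm10 (GRCm38) mouse genome are spans from GENCODE vM21. Of the 10 members 4 span under 5 kb (Egr4, Fos, Arc and Junb), and Egr4 was the shortest, with a span of 2469 bases at chr6:85511121-85513589. Fos spans 3384 bases (chr12:85473890-85477273), Arc 3488 bases (chr15:74669083-74672570) and Junb 4235 bases (chr8:84974484-84978718). Egr1 spans 5162 bases (chr18:34859823-34864984), Egr3 5412 bases (chr14:70077203-70082614), Npas4 5962 bases (chr19:4984355-4990316) and Fosb 7356 bases (chr7:19302696-19310051). Nptx2, with 11577 bases (chr5:144545902-144557478), and Fosl2, with 22042 bases (chr5:32135801-32157842), were the longest.

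Oligodendrocyte-like nuclei (1666 in AAV-STOP and 2069 in AAV-TAU) served as background, a stand-in for what free RNA and doublets can give, since Npas4 and Arc are known as neuronal genes. Any transcription of a member by these nuclei themselves would raise this level and was not tested. Their median depth was 2587 and 2392 UMIs, against 7431 and 7162 in CA1-like neurons. Levels across classes are given as UMIs per 1000 nuclei, which carry this difference in depth. For Npas4, Egr1 and Arc in CA1-like neurons, shares of nuclei after thinning each nucleus to 2000 UMIs are therefore added. In CPM, Junb in CA1-like neurons was at 1.15 (AAV-STOP) and 1.13 (AAV-TAU) times oligodendrocyte-like nuclei, and Egr3 at 0.983 and 1.21. Egr4 was at 1.2 and 0.988 times, and the counting intervals of Junb, Egr3 and Egr4 did not set them apart from background. Fos was at 0.508 and 0.784 times, Fosb at 0.916 and 3.29, Fosl2 at 2.39 and 1.44 and Nptx2 at 1.99 and 1.45.

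Per nucleus, Npas4 stood far above this background in the pyramidal classes. NPAS4 is a neuron-specific factor that pairs with ARNT2 and is switched on by calcium entry. Subicular or cortical-like neurons gave 61.8 Npas4 UMIs per 1000 nuclei in AAV-STOP and 77.7 in AAV-TAU. CA1-like neurons gave 34.6 (interval 27.5 to 43) and 78.5 (66.7 to 91.9), and CA3-like neurons 26.6 and 65.2. CA2-like neurons gave 36.1 (6 UMIs) and 82 (10 UMIs). Oligodendrocyte-like nuclei gave 3 (0.974 to 7) and 4.83 (2.32 to 8.89), so CA1-like neurons stood 11.5 times (4.75 to 36.5) and 16.3 times (8.61 to 34.6) higher per nucleus. The difference held at equal depth, where 0.77% of CA1-like nuclei had an Npas4 UMI in AAV-STOP and 2.02% in AAV-TAU, against 0.184% and 0.247% of oligodendrocyte-like nuclei. Without thinning the CA1-like shares were 2.95% (69 nuclei) and 5.24% (104 nuclei). In CPM, CA3-like neurons stood 2.44 times (0.874 to 8.42) above oligodendrocyte-like nuclei in AAV-STOP and 3.66 times (1.82 to 8.12) in AAV-TAU. CA2-like neurons stood 3.30 times (0.84 to 13.7) and 4.71 times (1.76 to 12.6) above them. The AAV-STOP intervals of CA3-like and CA2-like neurons thus include 1. Inhibitory-like neurons gave 21.4 and 14.5 UMIs per 1000 nuclei, and granule-like neurons only 6.6 and 8.45. In immature neuron-like nuclei Npas4 was seen as 1 UMI per library, and in Cajal-Retzius-like nuclei it was not seen.

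The EGR factors are zinc-finger proteins that bind GC-rich sites and drive later genes such as Arc. Egr1, the most abundant member, was highest in subicular or cortical-like neurons in AAV-STOP (138 UMIs per 1000 nuclei, interval 117 to 162) and in CA1-like neurons in AAV-TAU (232, 211 to 254). The AAV-STOP level of CA1-like neurons, 132 (117 to 147), did not differ from the subicular one beyond counting error. Granule-like neurons gave 62.3 and 87.6, close to the 49.2 and 82.2 of oligodendrocyte-like nuclei. At equal depth Egr1 did not set CA1-like neurons above the background: 3.04% and 4.99% of CA1-like nuclei had an Egr1 UMI after thinning, against 3.43% and 6.36% of oligodendrocyte-like nuclei. CA1-like neurons had 2.68 and 2.83 times more Egr1 UMIs per nucleus, beside their greater depth. Whether Egr1 in oligodendrocyte-like nuclei is their own or free RNA was not tested.

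Egr3 had another order. In AAV-STOP the intervals of granule-like (54.4 UMIs per 1000 nuclei), CA1-like (65.8), CA3-like (76.8) and subicular or cortical-like neurons (61.8) overlapped. In AAV-TAU CA1-like neurons (99.7, 86.3 to 115) lay above granule-like (64.9, 57.4 to 73.2) and subicular or cortical-like neurons (57.3, 43.6 to 74.0), with CA3-like neurons at 83.7. Inhibitory-like neurons gave 20.6 and 29.8, no more than the 24.6 and 29 of oligodendrocyte-like nuclei. Egr4 gave 61.1 and 63.9 UMIs per 1000 CA1-like nuclei, 50.7 and 61.2 in subicular or cortical-like, 20.7 and 58.2 in CA3-like and 26 and 28.7 in granule-like neurons, with 18 and 22.7 in oligodendrocyte-like nuclei.

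FOS proteins, FOSB and FOSL2 among them, pair with JUN proteins such as JUNB to form the AP-1 factor. Fos was highest in inhibitory-like neurons in AAV-TAU (41.3 UMIs per 1000 nuclei, 31 to 53.9) and in subicular or cortical-like neurons in AAV-STOP (31.3, 21.7 to 43.8), and these classes did not differ beyond counting error in either library. CA1-like neurons gave 14.1 and 30.2. Granule-like neurons gave 9.32 and 9.17, no higher than the 10.2 and 13.5 of oligodendrocyte-like nuclei. Fosb was the rarest member, at 12 and 22.7 in CA1-like and 10.1 and 6.27 in granule-like neurons, against 4.8 and 2.42 in oligodendrocyte-like nuclei. Fosl2 was highest in subicular or cortical-like neurons, at 89.4 and 80.7, followed by CA1-like neurons at 58.6 and 57.4, and oligodendrocyte-like nuclei gave 9 and 14. Junb gave 106 and 123 in subicular or cortical-like, 77 and 123 in CA1-like and 52.2 and 56.9 in granule-like neurons, with 24.6 and 38.2 in oligodendrocyte-like nuclei. In CA2-like neurons Junb gave 133 (83.1 to 201) and 82 (39.3 to 151), from 22 and 10 UMIs.

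Arc encodes a cytoskeletal protein that draws AMPA receptors into the cell, and Nptx2 a secreted pentraxin that gathers them at synapses. Arc gave 80.4 (AAV-STOP) and 129 (AAV-TAU) UMIs per 1000 nuclei in CA1-like neurons. It gave 65 and 79.4 in CA3-like and 62.7 and 91.4 in subicular or cortical-like neurons. Granule-like neurons (18.2 and 24.9) and inhibitory-like neurons (15.8 and 23.7) lay below the 32.4 and 31.4 of oligodendrocyte-like nuclei. At equal depth the share of CA1-like nuclei with an Arc UMI was 2.09% and 2.83%, against 2.14% and 2.16% of oligodendrocyte-like nuclei. In AAV-STOP this share thus did not rise above that of oligodendrocyte-like nuclei. Their Arc level is no floor, however, since granule-like and inhibitory-like neurons had less per nucleus. Whether Arc in oligodendrocyte-like nuclei is their own, free RNA or from doublets was not tested. Per nucleus, Nptx2 was highest in CA2-like neurons, at 120 UMIs per 1000 nuclei (73.6 to 186, 20 UMIs) in AAV-STOP. In AAV-TAU it was at 65.6 (28.3 to 129, 8 UMIs) there. CA2-like nuclei were deeper than CA1-like ones, and in CPM Nptx2 was at 11.6 and 6.95 against 5.45 and 6.95. CA1-like neurons gave 42.3 and 51.9 Nptx2 UMIs per 1000 nuclei, and the other neuron classes compared gave at most 25.5 in either library.

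**Figure D1:**
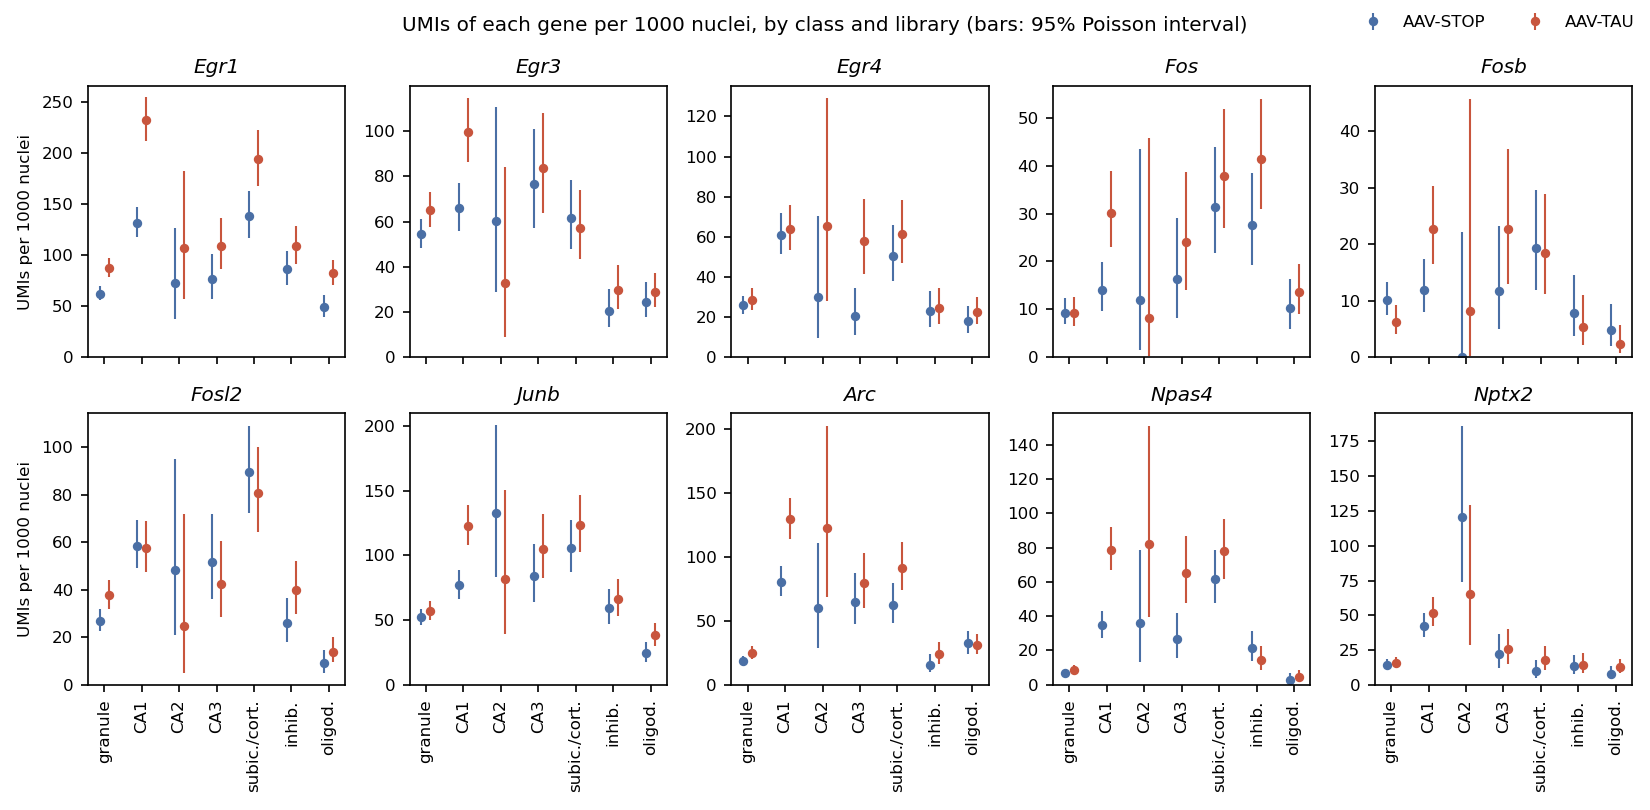
Each panel plots 1 of the 10 genes as UMIs per 1000 nuclei (y axis, own scale per gene, from 0) in 6 neuron classes and in oligodendrocyte-like nuclei (oligod.), with AAV-STOP in blue and AAV-TAU in red and bars for the 95% Poisson interval. Npas4 lies far above oligodendrocyte-like nuclei in CA1-like neurons (34.6 and 78.5 against 3 and 4.83), while Arc in granule-like neurons does not (18.2 and 24.9 against 32.4 and 31.4).

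The order of classes differed between members. Per nucleus, Npas4, Fosl2 and Fos had their highest AAV-STOP levels outside CA1-like neurons, in subicular or cortical-like neurons, while Arc and Egr4 had theirs in CA1-like neurons. Granule-like neurons, the largest class, were low for Arc, Npas4, Nptx2 and Fos and comparatively high for Egr3. Over all 10 members together, CA1-like neurons gave 74.3 CPM in AAV-STOP and 119 CPM in AAV-TAU, and granule-like neurons 50.1 and 64.3 CPM.

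For the 4 members with the most UMIs, the genes whose level was most alike over the 8 neuron classes of both libraries (16 points, 3000 genes read, log2 of CPM plus 5) were named by Pearson's r as a description. Egr1 was followed most closely by Rhot1 (0.891) and Sub1 (0.889). Junb was followed by Psmd4 (0.829), Egr3 by Zfp91 (0.902) and Eif3m (0.858), and Arc by Brd9 (0.870) and Usp46 (0.862). The points share libraries, and classes of low depth carry noise in all genes.

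Between the groups, most members were higher in AAV-TAU in CA1-like neurons, the output pyramidal cells of the hippocampus proper. A gene was read in a class when it had 50 or more UMIs over both libraries, and it counted as lower at a CPM ratio of AAV-TAU over AAV-STOP of 0.8 or less and as higher at the inverse of that or more (a log2 ratio of 0.32). In CA1-like neurons 8 of 10 members were higher and none was lower. Of all 13445 genes read there, 14.1% were higher and 2.77% lower, and of the genes with a span under 5 kb 36.8% were higher. The median log2 ratio was 0.74 over the members, 0.08 over all genes, 0.22 over genes under 5 kb and 0.81 over the 13 mitochondrial genes.

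Npas4 had the largest CA1-like ratio. Its level was 4.46 CPM in AAV-STOP and 10.5 CPM in AAV-TAU, a ratio of 2.36 (interval 1.79 to 3.13). Fos went from 1.82 to 4.05 CPM, a ratio of 2.23 (1.44 to 3.52), and Fosb from 1.54 to 3.04 CPM, a ratio of 1.97 (1.20 to 3.28). These are among the rarer members, and their intervals are wide.

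Egr1 stood at 16.9 CPM in AAV-STOP and 31.1 CPM in AAV-TAU of CA1-like neurons, a ratio of 1.84 (1.59 to 2.13). Oligodendrocyte-like nuclei gave nearly the same pair of Egr1 values, 17.2 and 31.4 CPM, at a ratio of 1.82 (1.39 to 2.40). Egr1 in fibroblast-like nuclei had a ratio of 1.03 (0.757 to 1.40), in microglia-like nuclei of 1.06 (0.606 to 1.95) and in oligodendrocyte precursor-like nuclei of 1.36 (0.897 to 2.08). Arc was at 10.3 and 17.3 CPM in CA1-like neurons, a ratio of 1.68 (1.38 to 2.03), but at 11.4 and 12 CPM in oligodendrocyte-like nuclei, a ratio of 1.06 (0.725 to 1.54). Junb, at 9.90 and 16.5 CPM, had a ratio of 1.66 (1.37 to 2.03) in CA1-like neurons and of 1.69 (1.15 to 2.53) in oligodendrocyte-like nuclei.

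Egr3 was at 8.47 and 13.4 CPM in CA1-like neurons, a ratio of 1.58 (1.27 to 1.96). Nptx2, at 5.45 and 6.95 CPM, had a ratio of 1.28 whose interval (0.959 to 1.70) reached below 1. Egr4 (7.87 and 8.57 CPM, ratio 1.09, 0.851 to 1.39) and Fosl2 (7.54 and 7.69 CPM, ratio 1.02, 0.789 to 1.32) were the members of CA1-like neurons that did not pass the fold. Summed over the 10 members, the ratio was 1.60 (1.49 to 1.72), and counted per nucleus it was 1.54.

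CA1-like neurons comprised 2 clusters, and the members were higher in AAV-TAU in each. In cluster 3, led by Stac and Galntl6 among named genes, the 10 members summed to 87.5 CPM in AAV-STOP and 142 in AAV-TAU, a ratio of 1.62 (1.48 to 1.78). In cluster 4, led by Pde11a and Cpne7, they summed to 57.9 and 97.4 CPM, a ratio of 1.68 (1.49 to 1.89). Npas4 went from 6.04 to 11.5 CPM in cluster 3 and from 2.48 to 9.62 CPM in cluster 4, ratios of 1.90 (1.35 to 2.69) and 3.88 (2.34 to 6.73). Egr1 differed less between the clusters, with ratios of 1.94 (1.63 to 2.32) and 1.87 (1.43 to 2.45).

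In CA3-like neurons, the pyramidal cells that receive the mossy fibres, 5 of the 7 members read were higher and none lower, against 15.7% higher and 3.65% lower among all genes and 38.3% higher among genes under 5 kb. Egr4 had the largest ratio, from 14 UMIs (2.00 CPM) in AAV-STOP to 41 UMIs (6.01 CPM) in AAV-TAU, 3.01 (1.61 to 5.98). Npas4 followed, from 18 UMIs (2.57 CPM) to 46 UMIs (6.75 CPM), 2.63 (1.49 to 4.81). Egr1 had a ratio of 1.52 (1.06 to 2.21), Junb of 1.33 (0.932 to 1.92), Arc of 1.31 (0.866 to 1.99), Egr3 of 1.17 (0.789 to 1.73) and Fosl2 of 0.881 (0.522 to 1.48). The members summed to 43.7 and 63.6 CPM, a ratio of 1.46 (1.26 to 1.69). Under finer clustering 3 members were higher, the summed ratio was 1.17 and that of Egr1 0.988.

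In subicular or cortical-like neurons 6 of 8 members read were higher and none lower, against 17.6% and 3.94% of all genes and 41.4% higher among genes under 5 kb. Arc had the largest ratio, from 7.77 to 12.4 CPM, 1.60 (1.16 to 2.22), and Egr1 was at 17.1 and 26.4 CPM, 1.54 (1.24 to 1.91). Npas4 was already high in AAV-STOP, at 7.66 CPM, and stood at 10.6 CPM in AAV-TAU, a ratio of 1.38 (0.988 to 1.94). Egr3 (1.02, 0.707 to 1.47) and Fosl2 (0.992, 0.731 to 1.34) were level. The clusters of this class did not move alike: the summed ratio was 1.56 (1.36 to 1.79) in cluster 10, led by Fn1 and Teddm3, 1.42 (1.05 to 1.93) in cluster 25, led by Vwc2l and Tshz2, and 0.883 (0.725 to 1.08) in cluster 17, led by Dpp10 and Foxp2. In cluster 17, singled out after its values were seen, Npas4 was lower, at 19.1 CPM (32 UMIs) in AAV-STOP and 8.07 CPM (17 UMIs) in AAV-TAU, a ratio of 0.422 (0.220 to 0.783), while in cluster 10 it was at 4.45 and 11.1 CPM, 2.50 (1.50 to 4.26). With CPM averaged over nuclei, 3 members of the class passed the fold.

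In inhibitory-like neurons 5 of 7 members read were higher and none lower, against 14.6% and 3.37% of all genes and 40.3% higher among genes under 5 kb. Fosl2 was at 4.01 and 6.45 CPM, a ratio of 1.61 (1.02 to 2.57), and Fos at 4.25 and 6.69 CPM, a ratio of 1.57 (1.01 to 2.48). Arc (1.58, 0.873 to 2.93), Egr3 (1.53, 0.908 to 2.62) and Egr1 (1.33, 1.03 to 1.72) also passed the fold. Npas4, with 27 and 19 UMIs, was too sparse to be read and stood at 3.28 and 2.36 CPM. After thinning to 2000 UMIs the summed ratio of the class was 1.05, against 1.29 (1.13 to 1.48) with all UMIs.

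In granule-like neurons, the principal cells of the dentate gyrus, the ratios were smaller. Of 10 members 5 were higher and 1 lower, against 15.1% and 2.27% of all genes and 35.3% higher among genes under 5 kb, and none reached a ratio of 1.5. Egr1 was at 11.1 and 16.6 CPM, a ratio of 1.49 (1.28 to 1.74), Fosl2 at 4.82 and 7.12 CPM, 1.48 (1.17 to 1.87), and Arc at 3.26 and 4.70 CPM, 1.44 (1.08 to 1.93). Npas4 had a ratio of 1.36 (0.822 to 2.24) and Egr3 of 1.27 (1.07 to 1.50). Fosb was the lower member, at 1.80 CPM in AAV-STOP (52 UMIs) and 1.19 CPM in AAV-TAU (26 UMIs), a ratio of 0.659 (0.395 to 1.07), but 1.26 (0.658 to 2.40) without the nuclei that held 4 or more members. The members summed to a ratio of 1.28 (1.19 to 1.38), and the median log2 ratio was 0.28 over members, 0.09 over all genes and 0.22 over genes under 5 kb.

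Among the smaller classes, CA2-like neurons (166 and 122 nuclei) had no member with 50 UMIs, and the summed ratio was 1.15 (0.838 to 1.58). Immature neuron-like nuclei had Egr1 alone read, at 37 and 42 UMIs and a ratio of 1.35 (0.847 to 2.16), where 16.2% of all genes were higher, and the summed ratio was 1.24 (0.956 to 1.61). Cajal-Retzius-like nuclei gave 26 and 51 member UMIs in all and no member to read, with a summed ratio of 1.58 (0.966 to 2.64). Among unnamed clusters not counted in these classes, the summed ratio was 1.68 (1.38 to 2.04) in cluster 12 and 1.42 in clusters 11 and 20. It was 1.02 in clusters 13 and 18, 1.03 in cluster 23 and 0.840 (0.698 to 1.01) in cluster 24. Nuclei with 4 or more members numbered 6 and 1 in cluster 13, 3 and 0 in cluster 23 and 10 and 3 in cluster 24.

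Other values moved with these ratios. In oligodendrocyte-like nuclei 4 of 5 members read were higher and none lower, against 21.1% and 5.54% of all genes and 51.2% higher among genes under 5 kb, and the members summed to 64.4 and 95.8 CPM, a ratio of 1.49 (1.29 to 1.72). In these nuclei 6 CA1 markers summed to 8208 and 6628 UMIs per 1000 nuclei and 11 inhibitory markers to 6444 and 4684. The 6 granule markers summed to 1860 and 1602 and the 6 CA3 markers to 733 and 716. In CPM the CA1 markers were at 2876 and 2531, the inhibitory ones at 2258 and 1789 and the granule ones at 652 and 612. The CA3 markers were higher in AAV-TAU by CPM, at 257 and 273. The median share of mitochondrial UMIs was higher in AAV-TAU in each of these classes, at 0.118% and 0.212% in CA1-like, 0.0882% and 0.132% in CA3-like, 0.167% and 0.265% in granule-like and 0.293% and 0.430% in oligodendrocyte-like nuclei. The part of this shift toward short and mitochondrial transcripts in the members' ratios was not tested. Markers of other cells stayed close to level in CA1-like neurons, where all 6 oligodendrocyte markers were detected in both libraries at a summed 2714 and 2675 UMIs per 1000 nuclei. The 7 microglial markers summed to 540 and 539 UMIs there, and the 6 astrocyte markers to 1044 and 1146.

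**Figure D2:**
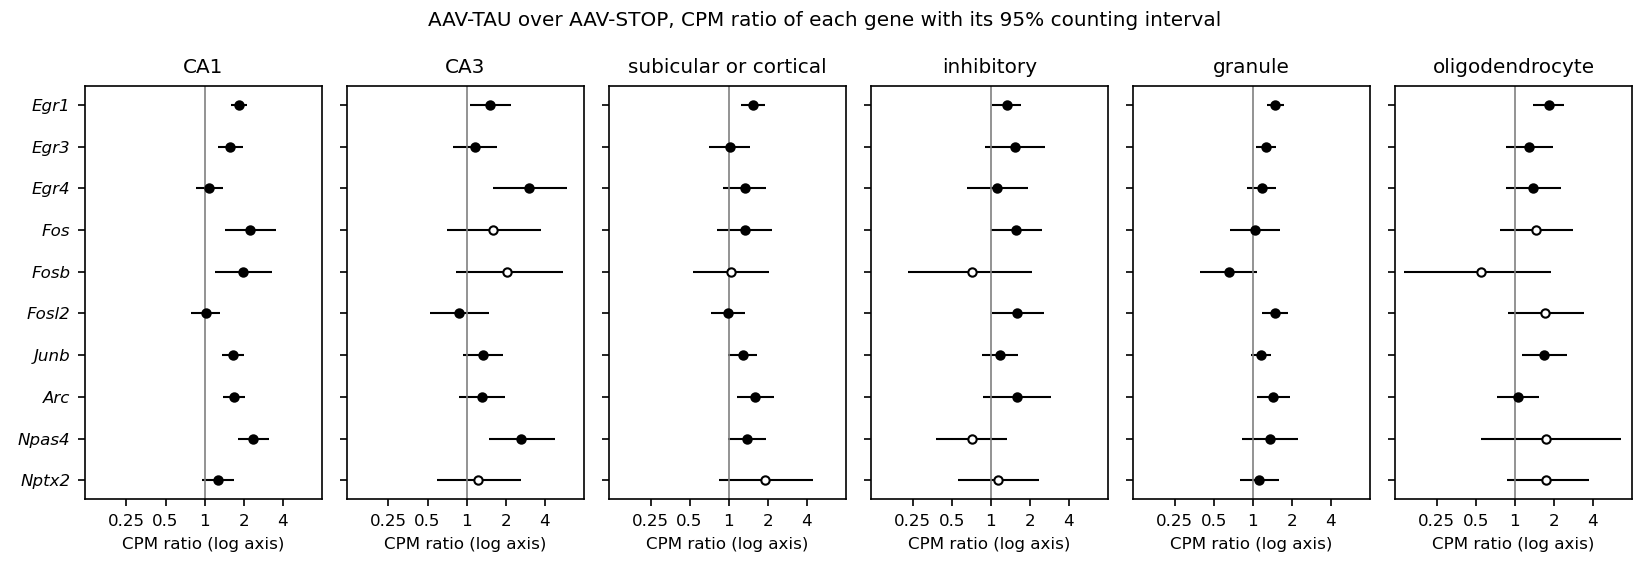
Each panel plots, for 1 class, the CPM ratio of AAV-TAU over AAV-STOP for the 10 genes on a log axis with its 95% counting interval, the line marking 1 and open points marking genes with under 50 UMIs. In CA1-like neurons 8 of 10 points pass the fold, with Npas4 at 2.36 and Fosl2 at 1.02, while granule-like neurons stay below 1.5.

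Part of the difference lay in few nuclei that held several members at once. In CA1-like neurons 36.1% of AAV-STOP nuclei and 43.9% of AAV-TAU nuclei had a UMI of at least 1 member. With 3 or more different members there were 59 of 2339 AAV-STOP nuclei, 2.52% (1.93 to 3.24), and 122 of 1986 AAV-TAU nuclei, 6.14% (5.13 to 7.29). With 4 or more there were 23 nuclei (0.983%, 0.624 to 1.47) and 62 nuclei (3.12%, 2.40 to 3.98), and with 5 or more 13 and 31. Both CA1-like clusters showed it, with 3 or more members in 3.23% and 7.84% of the nuclei of cluster 3 and in 1.54% and 4.35% of those of cluster 4.

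Deep nuclei are more likely to show several members, so nuclei were also thinned. After thinning to 2000 UMIs, 35 of 2339 AAV-STOP nuclei (1.50%, 1.04 to 2.07) and 51 of 1982 AAV-TAU nuclei (2.57%, 1.92 to 3.37) of the CA1-like class had 2 or more members. At 4000 UMIs, 12 of 2289 (0.524%) and 46 of 1931 (2.38%) had 3 or more. In oligodendrocyte-like nuclei, 3 of 1634 (0.184%) and 29 of 1620 (1.79%) had 2 or more members at 2000 UMIs, with 449 shallower AAV-TAU nuclei left out, so a pair of members was also more frequent there in AAV-TAU. Nuclei with 4 or more members were not found among the 1666 and 2069 oligodendrocyte-like nuclei with all UMIs.

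CA3-like neurons had 4 or more members in 2 of 677 AAV-STOP nuclei (0.295%, 0.0358 to 1.06) and 13 of 705 AAV-TAU nuclei (1.84%, 0.985 to 3.13). Subicular or cortical-like neurons had 3 or more in 31 of 1085 (2.86%) and 49 of 1029 (4.76%), but at 4000 UMIs in 11 of 1030 (1.07%) and 12 of 977 (1.23%). In inhibitory-like neurons the counts of nuclei with 3 or more were 10 and 14, and with 4 or more 1 and 1. In granule-like neurons, 23 of 5145 nuclei (0.447%, 0.284 to 0.670) and 43 of 4118 (1.04%, 0.757 to 1.40) had 2 or more members at 2000 UMIs, so the share was higher in AAV-TAU there too. Counted with all UMIs, the intervals overlapped: 3 or more members were found in 18 of 5151 nuclei (0.349%, 0.207 to 0.552) and 21 of 4144 (0.507%, 0.314 to 0.774), and 4 or more in 7 and 4. Granule-like nuclei with many members were nonetheless intense, the top AAV-STOP nucleus holding 24 member UMIs and 8 different members.

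**Figure D3:**
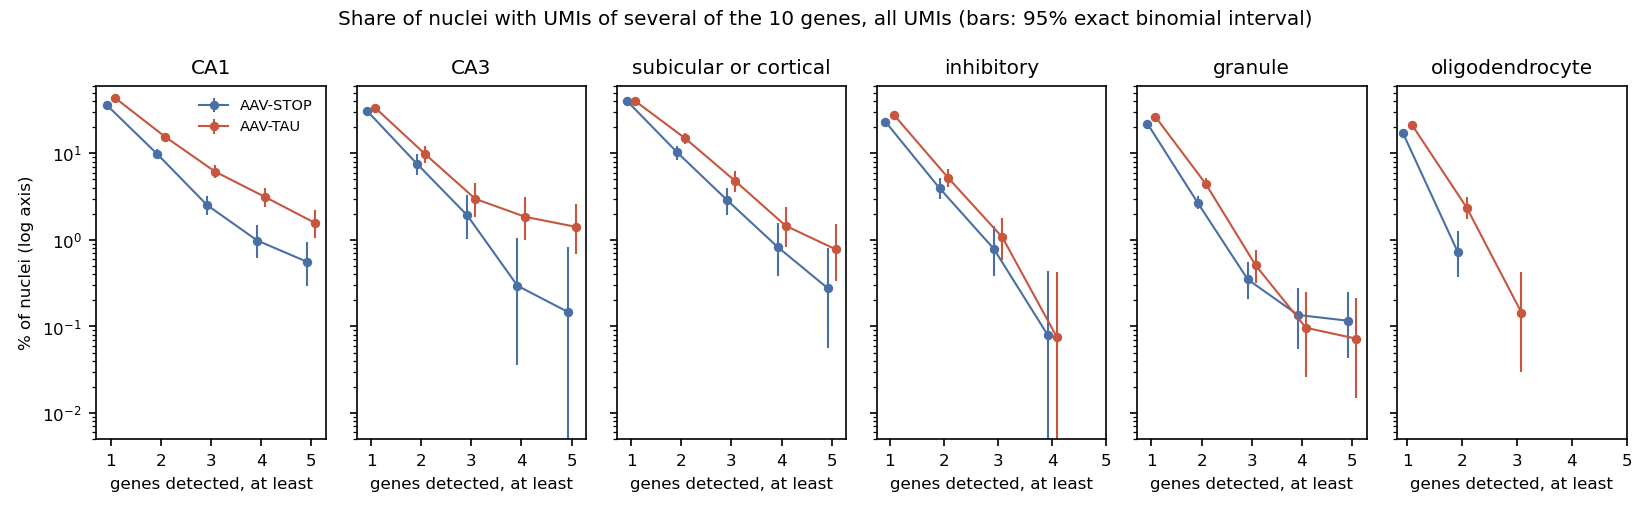
Each panel plots, for 1 class, the share of nuclei (percent, log axis) with UMIs of at least 1 to at least 5 of the 10 genes, all UMIs, with AAV-STOP in blue, AAV-TAU in red and bars for the exact 95% binomial interval (shares of 0 are not drawn). The libraries part toward the right in CA1-like and CA3-like neurons (0.983% and 3.12% at 4 genes in CA1-like), while at 4 genes the intervals of granule-like neurons overlap.

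These few nuclei held a sizeable part of the UMIs. Nuclei with 4 or more members held 185 of 1351 member UMIs (13.7%) of CA1-like neurons in AAV-STOP and 485 of 1765 (27.5%) in AAV-TAU, and in CA3-like neurons 6.21% and 27.9%. They were deeper than their class, with medians of 11904 and 8693 UMIs in CA1-like neurons. Without them, a setting chosen after seeing the data, the summed CA1-like ratio was 1.38 (1.27 to 1.49) in place of 1.60. Npas4 then had a ratio of 1.58 (1.13 to 2.22), Arc of 1.48 (1.19 to 1.83), Egr1 of 1.71 (1.46 to 2.02), Fos of 1.34 (0.794 to 2.26) and Fosb, with 15 and 14 UMIs, of 1.17 (0.524 to 2.60). In CA3-like neurons the summed ratio without them was 1.14 (0.970 to 1.35), and Npas4 stood at 1.13 (0.492 to 2.60). These nuclei were picked by the members' own UMIs and were more frequent in AAV-TAU in both classes. Lower summed ratios without them follow from that choice and show only how the UMIs were spread over nuclei.

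The members found in the CA1-like nuclei with 3 or more were similar between libraries for some genes and differed for others. Egr1 was in 62.7% of these nuclei in AAV-STOP and 69.7% in AAV-TAU, Arc in 61.0% and 62.3% and Junb in 55.9% and 46.7%. Npas4 was in 35.6% and 51.6%, Fos in 10.2% and 25.4% and Egr3 in 23.7% and 39.3%, while Egr4 was in 47.5% and 32.0%. In granule-like neurons the leading member was Egr3 in AAV-STOP, in 17 of 18 nuclei, and Junb in AAV-TAU, in 15 of 21. Egr3 was in 10 of the 21 AAV-TAU nuclei, Junb in 13 of the 18 AAV-STOP nuclei and Egr1 in 7 and 11.

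Some pairs of members occurred together. Of the CA1-like nuclei with an Arc UMI, 18 of 162 (11.1%, 6.72 to 17.0) also had Npas4 in AAV-STOP, against 2.34% of nuclei without Arc. In AAV-TAU it was 47 of 205 (22.9%, 17.4 to 29.3) against 3.20%. Of the nuclei with Npas4, 18 of 69 (26.1%, 16.3 to 38.1) had Egr1 in AAV-STOP and 47 of 104 (45.2%, 35.4 to 55.3) in AAV-TAU, against 10.3% and 14.7% of nuclei without Npas4. Fos and Npas4 were seen together in 2 of 31 Fos-positive nuclei in AAV-STOP and in 16 of 52 (30.8%, 18.7 to 45.1) in AAV-TAU, against 2.90% and 4.55% of nuclei without Fos. Not every pair showed such an excess in both libraries. Nptx2 was in 4.35% of AAV-STOP CA1-like nuclei with Npas4 and in 3.70% of those without. In AAV-TAU it was in 17.3% (10.6 to 26.0) of CA1-like nuclei with Npas4 and in 4.09% of those without. In granule-like neurons Egr1 was in 6.90% of nuclei with Arc and 5.77% of those without in AAV-STOP, and in 5.26% and 8.03% in AAV-TAU. Such pairs are more likely in deep nuclei, and these shares were not thinned.

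A list of 42 other activity-linked genes shows the wider program, and a list of 14 partners and upstream factors (Nab1, Nab2, Arnt2, Srf, Creb1, Mef2c and others) shows genes that need not be induced. Nuclei of the CA1-like class with 4 or more members were compared with nuclei with none, counting a gene where its CPM was at least 2 times higher in both libraries. Of 35 activity genes read, 17 passed and none was at 0.5 or less in both, while of the 14 partners none passed. The least supported of the 17 was Gadd45g, with 2 UMIs in the AAV-STOP nuclei. Of all 13435 genes other than the members, both lists included, 0.856% were as much higher and 6.3% as much lower. Pcsk1, a prohormone convertase, stood at 129 CPM against 18.4 in AAV-STOP and at 159 against 16.5 in AAV-TAU, 6.97 and 9.65 times higher. Nr4a2, an orphan nuclear receptor, was 6.33 and 7.04 times higher, Nr4a3 5.19 and 6.39 times, Bdnf, a neurotrophin, 4.69 and 5.07 times, and Homer1, a postsynaptic scaffold, 3.00 and 2.93 times.

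In granule-like neurons only 7 and 4 nuclei held 4 or more members, too few for counts over a list, and values are given for genes with at least 5 UMIs in each library's nuclei. Homer1 was at 1413 against 79.3 CPM in AAV-STOP (77 UMIs) and at 1500 against 73.7 in AAV-TAU (41 UMIs), 17.8 (14.0 to 22.4) and 20.3 (14.5 to 27.8) times higher. Nr4a3 was 101 (66.1 to 149) times higher in AAV-STOP and 28.3 (8.99 to 68.2) times in AAV-TAU, where it had 5 UMIs. These genes were chosen after their values were seen.

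Ranking all genes read by the smaller of the 2 libraries' folds in CA1-like nuclei with 3 or more members, a setting added to the planned one, gave 12 names, 7 of them on the activity list. They were led by Pcsk1 (5.30 times higher than in nuclei with none in AAV-STOP and 6.59 in AAV-TAU), Nr4a3 (5.25 and 5.82), Nr4a2 (4.67 and 5.34), Tiparp (4.18 and 5.81) and Nr4a1 (4.31 and 3.73). Outside the list stood Spry2 (2.95 and 3.28) and Errfi1 (2.50 and 3.26), inhibitors of growth factor signalling, Elmo1 (5.66 and 2.88), Mir670hg (4.07 and 2.67) and Rnf128 (2.48 and 3.01). In CA3-like neurons the same ranking was led by Nr4a2 (19.6 and 12.4), Mir670hg (8.80 and 9.30) and Bdnf (7.44 and 8.88), and in granule-like neurons by Homer1 (6.30 and 3.99). Errfi1, singled out after its values were seen, was among the 12 in each of these 3 classes. The planned rule took 2 or more members after thinning to 2000 UMIs. It named Homer1 first in CA1-like neurons (2.2 and 2.1 times) and in granule-like neurons (6.80 and 3.82 times). Otherwise it named few activity genes: Sorcs3 was the only other one in CA1-like neurons, and granule-like neurons had no other. In CA3-like neurons, with 2 and 11 such nuclei, it named none and was led by Malat1 (1.12 and 1.13 times).

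**Figure D4:**
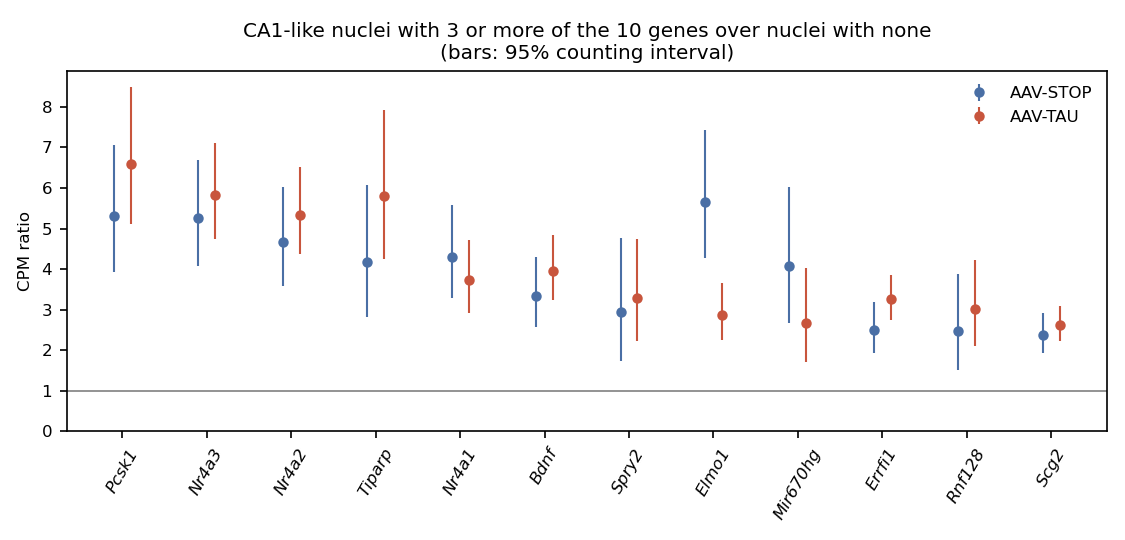
For 12 genes (x axis) the CPM ratio between CA1-like nuclei with 3 or more of the 10 genes and nuclei with none is plotted from 0, with AAV-STOP in blue, AAV-TAU in red and bars for the 95% counting interval. All 12 lie above 2 in both libraries, and Elmo1 is the gene whose libraries lie furthest apart, at 5.66 and 2.88.

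Over all nuclei of a class, the activity list differed less between the groups than the members did. In CA1-like neurons 12 of 35 activity genes read were higher in AAV-TAU and none lower, with a median log2 ratio of 0.27 beside 0.08 for all genes. As background, 14.1% of all genes and 36.8% of genes under 5 kb were higher there. The largest was Ier2, from 19 to 34 UMIs and 1.05 to 2.29 CPM, a ratio of 2.20 (1.22 to 4.07), followed by Trib1 (1.69, 0.933 to 3.12), Gadd45b (1.59, 1.11 to 2.29) and Gadd45g (1.58, 1.01 to 2.48). Of the 14 partners 1 was higher, Mapk3, an ERK kinase, at 1.31 (0.974 to 1.75). In granule-like neurons 8 of 35 activity genes were higher and 1 lower, against 15.1% and 35.3% by the same measures, led by Ier5 (1.55, 1.28 to 1.89) and Sik1 (1.53, 1.18 to 1.98). In CA3-like neurons 8 of 30 were higher and 1 lower (15.7% and 38.3%), with Rgs2, a regulator of G protein signalling, at 2.54 (1.41 to 4.76) and Dusp6, an ERK phosphatase, at 0.664 (0.408 to 1.06). In inhibitory-like neurons 10 of 29 were higher and none lower (14.6% and 40.3%), with Nr4a2 at 1.72 (1.17 to 2.55), and in subicular or cortical-like neurons 8 of 33 (17.6% and 41.4%), with Sik1 at 1.79 (1.16 to 2.78). Oligodendrocyte-like nuclei had 16 of 29 higher and 2 lower (21.1% and 51.2%), led by Gadd45b at 2.08 (1.13 to 4.00). Partners passed the fold outside CA1-like neurons too. Mapk3 was at 1.31 (1.16 to 1.46) in granule-like and Elk1 at 1.29 (1.02 to 1.63) in inhibitory-like neurons. Mef2c was at 1.27 (1.07 to 1.52) in CA3-like, 1.30 (1.16 to 1.46) in subicular or cortical-like and 1.36 (1.19 to 1.56) in oligodendrocyte-like nuclei. Lower were Srf in subicular or cortical-like (0.740, 0.419 to 1.28) and Nab2 in inhibitory-like neurons (0.771, 0.468 to 1.26).

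Finer clustering of granule-like nuclei set apart 25 nuclei, 16 of AAV-STOP and 9 of AAV-TAU, led by Mir670hg, Tll1, Atf3, Inhba, Baz1a and Bag3, although neither the members nor the activity list entered the clustering. The 10 members gave 52 UMIs there, 356 CPM against 55.5 CPM in the other granule-like nuclei. Arc was at 75.2 CPM (11 UMIs) against 3.68, Nptx2 at 54.7 (8 UMIs) against 2.59, Fosl2 at 47.9 (7 UMIs) against 5.70, Npas4 at 34.2 (5 UMIs) against 1.27 and Fosb at 27.3 (4 UMIs) against 1.48. Egr1 was at 6.84 CPM (1 UMI) against 13.5, and Egr3 at 13.7 (2 UMIs) against 10.8. Only 3 of these nuclei held 3 or more members, so they were for the most part other nuclei than the intense ones above. Between the 2 largest granule-like clusters, Egr3 was at 13.6 and 17.1 CPM in cluster 2, which holds Trpc6 and Mylk3, against 8.75 and 10.6 in cluster 0, and Nptx2 at 5.92 and 5.12 against 1.69 and 2.07.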

How the data were processed

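Single-nucleus RNA was measured in 2 libraries, 1 per group, of 3 pooled mice each. The authors deposited a matrix of UMI counts for each library, filtered to called barcodes. Cell Ranger made them: the version is 8.0.1 per the file headers, but 4.0 per the submitters' processing notes, which also list Seurat 4.4.0 and the build mm10. The kit counts from the 3′ end, per the labels' protocols, and whether intronic reads were counted is not given in the sources used here.

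All steps ran in Python 3.11.15 (pandas 2.3.3, numpy 2.4.6, scipy 1.17.1), with clustering by leidenalg 0.10.2 on igraph 0.11.9 and figures by matplotlib 3.10.9. Barcodes with under 500 UMIs, under 300 genes or over 5% mitochondrial UMIs were left out (4 in AAV-STOP and 2 in AAV-TAU). Doublets were marked by a scrublet-type method with an expected rate of 0.15 and left out, 2401 (11.9%) and 1781 (9.09%). The 35673 nuclei left were clustered jointly on 3000 variable genes, 30 principal components and 20 neighbours (leiden, resolution 1), after 52 genes, the members and the activity list, had been kept out. Of 47 clusters 31 were named from marker genes. Thresholds for naming were chosen with the data in view: a mean marker level of at least 1.6 (log2 over the median cluster), a lead of 0.5 and 3 markers raised at least 2 times at 10 CPM or more. Classes with under 100 nuclei in either library were not compared.

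For each class the UMIs of its nuclei were added up and given as CPM or per 1000 nuclei, with exact Poisson, conditional binomial (ratios) and Clopper-Pearson (shares) intervals. The main ratios carry no pseudocount. Ratios were computed for all genes, and the arithmetic was checked on simulated counts. No test of the condition is possible with 1 library per group, so a CPM ratio of 0.8 or less, or its inverse or more, stands in for a call. All 10 members are named. Of the activity list up to 4 genes and of the partner list up to 2 per class were named, those with the largest absolute log2 ratio, and of genes like the members the 12 with the largest smaller fold of both libraries among those with 20 or more UMIs in the nuclei with several members. Some other genes were named after their values were seen. The members and lists were chosen with earlier results of these data known. Alternatives changed the scaling, the fold, the UMI minimum, doublets, clustering resolution, a UMI floor, the weight of nuclei, thinning and, added after seeing the data, leaving out nuclei with 4 or more members.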

Additional observations from a re-analysis of the deposited data

Results flagged for a closer look

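Fosb had ratios on opposite sides of 1 in 2 neuron classes, and the granule-like interval includes 1. Its CPM ratio of AAV-TAU over AAV-STOP was 1.97 in CA1-like neurons (28 and 45 UMIs, interval 1.20 to 3.28) and 0.659 in granule-like neurons (52 and 26 UMIs, interval 0.395 to 1.07). The difference between the classes was not tested, since each group is 1 library. Without the nuclei that held 4 or more members, which were picked by member UMIs, those of Fosb included, the CA1-like ratio of Fosb was 1.17 (0.524 to 2.60). Without them the granule-like ratio was 1.26 (0.658 to 2.40, 22 and 21 UMIs), on the other side of 1. With 5 CPM added it was 0.910, and after thinning or with 200 UMIs required Fosb had too few UMIs to be read.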

How the results depend on the processing

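No paired analysis was possible because each group is 1 library, and no replicate could be left out for the same reason. Of 350 alternative ratios of single genes, 339 kept their direction and stayed within the counting interval, 9 moved and 2 reversed. Both reversals were in CA3-like neurons, with Egr1 at 0.988 at resolution 2 and Arc at 0.998 without nuclei with 4 or more members. The granule-like Fosb ratio, which crossed 1 without those nuclei at under 50 UMIs, is not among these 2. Of 55 alternative counts of higher members 41 stayed within 1.5 times of the main count. At a fold of 1.5 the counts were 0 in granule-like, 3 in CA3-like and 2 in subicular or cortical-like neurons. With 200 or more UMIs required they were 3 in granule-like, 0 in CA3-like (no member read), 2 in subicular or cortical-like and 1 in inhibitory-like neurons. After thinning they were 0 in CA3-like (no member read), 2 in subicular or cortical-like and 0 in inhibitory-like neurons, where fewer members were read. Resolution 2 gave 3 in CA3-like neurons, the mean over nuclei 3 in subicular or cortical-like neurons, and leaving out nuclei with 4 or more members 1 in CA3-like and 3 in subicular or cortical-like neurons. In CA1-like neurons the count stayed between 6 and 8 in all settings run.

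Of 40 alternative summed ratios 36 stayed within the interval. Without nuclei with 4 or more members the summed ratio was 1.38 in CA1-like neurons and 1.14 in CA3-like ones, at resolution 2 it was 1.17 in CA3-like neurons, and after thinning 1.05 in inhibitory-like neurons. The ratio of shares of nuclei with 2 or more members, 2.34 in granule-like, 1.72 in CA1-like and 1.86 in subicular or cortical-like neurons, became with 3 or more members 0.750, 2.95 and 5.27. With 4 or more members and no thinning it was 0.710 in granule-like and 3.17 in CA1-like neurons. The granule-like reversals rest on 5 and 3, and on 7 and 4 nuclei, and the cause was not tested. Depth limits the report most for Fosb, Fos, Nptx2 and Npas4, and in CA2-like, Cajal-Retzius-like and immature neuron-like nuclei.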

Other observations

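Inhibitory-like neurons held unlike levels of the members in their finer clusters. Vip-like neurons, interneurons that inhibit other interneurons, were highest, with the 10 members at 116 CPM (94.5 to 140) in AAV-STOP and 114 CPM (91.7 to 139) in AAV-TAU. Pvalb-like neurons, fast-spiking cells, were at 37.6 and 40.8 CPM. Sst-like neurons, which inhibit dendrites, were at 38.4 CPM (31.1 to 46.9) and 59.1 CPM (50.3 to 68.9), with Fos at 5 UMIs (2.02 CPM) and 22 UMIs (8.02 CPM). Cnr1-like neurons were at 30.8 and 51.5 CPM and Lamp5-like neurons at 43.4 and 62.1 CPM.

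In an unnamed excitatory cluster led by Arhgap6, Camk2d and Otof (463 and 431 nuclei), Arc and Nptx2 lay on opposite sides, both with under 50 UMIs. Arc was at 2.14 CPM (9 UMIs) in AAV-STOP and 11.9 CPM (36 UMIs) in AAV-TAU, a ratio of 5.58 (2.64 to 13.2), and Nptx2 at 8.32 CPM (35 UMIs) and 1.33 CPM (4 UMIs), a ratio of 0.159 (0.0412 to 0.446). Other genes were lower there too, with Homer1 at a ratio of 0.533, Sorcs3 at 0.543, Nr4a1 at 0.499 and Mef2c at 0.607. In the unnamed cluster led by Npsr1 and Atp10b (346 and 406 nuclei), Arc was at 4.06 CPM (9 UMIs) and 17.7 CPM (42 UMIs), and Fosl2 at 17.2 and 23.6 CPM.

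The unnamed cluster 24, whose leading genes are mitochondrial (mt-Nd5, mt-Nd2, mt-Co1) together with Hpca and Calm3, had Egr1 at 102 CPM (83.9 to 122) in AAV-STOP and 74.5 CPM (59.1 to 92.7) in AAV-TAU, and Egr4 at 29.4 and 20.5 CPM. Outside neurons, fibroblast-like nuclei had Egr1 at 117 and 120 CPM, Fos at 34.2 and 52.3 CPM and Junb at 39.3 and 66.4 CPM, with Npas4 at 0 UMIs in AAV-STOP (270 nuclei) and 1 UMI in AAV-TAU. Microglia-like nuclei had Egr1 at 41.0 and 43.6 CPM and Junb at 50.1 and 35.2 CPM.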
